A study of Mus musculus with 48 samples.

Results

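RNA carried by the ribosomes of healthy striatal astrocytes was compared with RNA of the whole striatum in 16 of the 48 libraries of the series, those of mice that received no toxin, gene knockout or engineered receptor. Each of 8 mice gave an immunoprecipitated library (IP, RNA bound to tagged astrocyte ribosomes) and an input library (lysate RNA of the same striatum, taken before the precipitation). The vehicle batch held 4 mice labelled as vehicle controls, and the wild-type batch held 4 wild-type littermates. Both batches are labelled C57 striatum, and both carried HA-tagged Rpl22 delivered to striatal astrocytes by an adeno-associated virus 3 weeks before RNA was taken, so the controls were themselves virus-injected animals. The promoter that drove the tag is not given in the sources used here, ages are not stated, and the title of wild-type mouse 3 may join a pair of animals. The labels place the vehicle injection in the striatum although the toxin of that experiment was dosed by body weight, so its route is uncertain. Batch and condition (vehicle injection or littermate control) cannot be told apart.

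Astrocytes clear glutamate and potassium from around synapses, pass metabolites through gap junctions and transporters, and wrap blood vessels with endfeet. RiboTag puts an epitope on the ribosomal protein Rpl22 in one cell type, so that ribosomes and the messenger RNA on them can be drawn from a lysate with an antibody. The ratio of IP to input then ranks RNAs by how far they are over- or under-represented on the tagged ribosomes relative to the tissue. In such bulk samples, fewer cells of a type and less RNA per cell cannot be told apart.

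Counted reads per library were 39.3 M to 54.7 M in vehicle IP and 33.8 M to 39.0 M in vehicle input, and 40.4 M to 47.7 M in wild-type IP and 23.4 M to 31.9 M in wild-type input. One set of libraries stood apart before any comparison. Input libraries of wild-type mice 2 to 4 held more cortical excitatory neuron RNA than the rest: the vesicular glutamate transporter gene Slc17a7 was at 528, 406 and 459 CPM (counts relative to library size, scaled by TMM within a batch) there, at 55.4 CPM in input of wild-type mouse 1 and at 22.6 to 35.7 CPM in vehicle input. The same 3 libraries held less of the medium spiny neuron gene Ppp1r1b, with 658 to 736 CPM against 1236 CPM in wild-type mouse 1. Results on cortical, medium spiny and pan-neuronal genes in wild-type mice rest on these inputs.

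The astrocyte label was checked with the markers of the cell type. The glutamate transporter gene Slc1a2 (chr2:102658659-102790784, GRCm38, the build also called mm10) was at 21046, 14506, 19146 and 21644 CPM in vehicle IP, against 1891, 1664, 2017 and 2020 CPM in vehicle input. In wild-type mice Slc1a2 was at 14520, 18173, 22607 and 16554 CPM in IP, against 3659, 4788, 5135 and 4392 CPM in input. Every IP library lay above every input library, and the log2 fold change of IP over input was 3.32 ± 0.0671 in vehicle mice and 1.99 ± 0.0973 in wild-type mice (± SE, 4 mice each, edgeR adjusted p = 1.14e-10 and 4.03e-07).

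Gja1, which encodes the main astrocyte connexin, was at 1098, 1005, 1091 and 1147 CPM in vehicle IP, against 173, 168, 153 and 160 CPM in vehicle input, and at 588, 669, 841 and 733 CPM in wild-type IP, against 135, 133, 152 and 148 CPM in wild-type input. Aldh1l1, a folate enzyme used as a general astrocyte marker, was at 494, 493, 492 and 498 CPM in vehicle IP, against 75.4, 82.3, 80.1 and 75.7 CPM in vehicle input, and at 380, 521, 422 and 528 CPM in wild-type IP, against 76.4, 92.4, 67.5 and 76.3 CPM in wild-type input. Neither gene had overlapping IP and input libraries in either batch, and the log2 fold changes were 2.73 and 2.31 for Gja1 and 2.66 and 2.56 for Aldh1l1 in vehicle and wild-type mice.

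Kcnj10, the inward rectifier potassium channel that takes up potassium, was at 438, 395, 485 and 601 CPM in vehicle IP, against 62, 57.7, 60.6 and 69.9 CPM in vehicle input. Wild-type libraries had 503, 548, 620 and 656 CPM in IP, against 136, 157, 165 and 155 CPM in input, so that each wild-type input library lay above each vehicle input library, while the IP ranges of the batches overlapped. Log2 fold changes were 2.93 ± 0.0601 in vehicle and 1.92 ± 0.0665 in wild-type mice. The tagged gene Rpl22 itself was at 1390 to 1779 CPM in vehicle IP, against 246 to 342 CPM in vehicle input, and at 752 to 1805 CPM in wild-type IP, against 116 to 224 CPM in wild-type input. Reads of the viral copy of Rpl22 and of the mouse's own gene cannot be told apart in a count per gene.

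**Figure D1:**
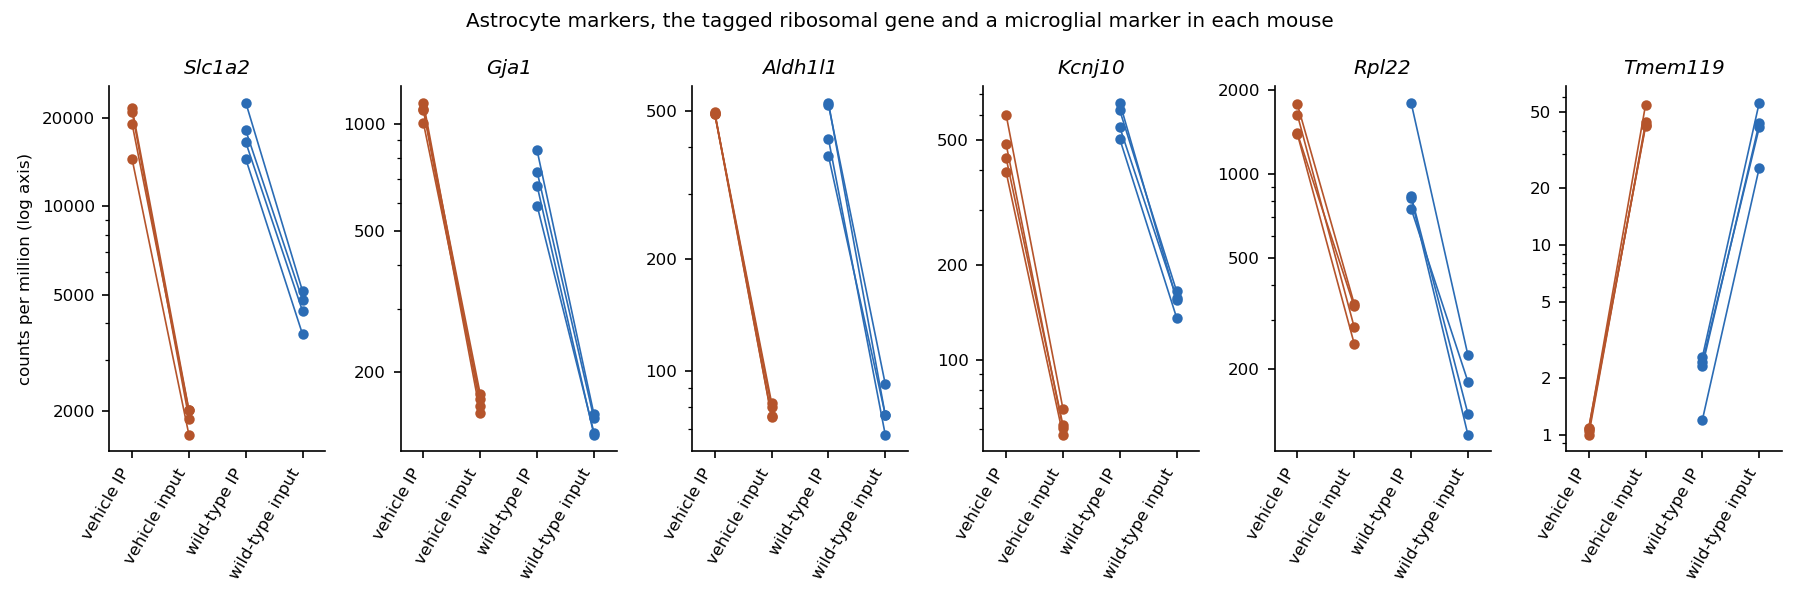
CPM on a log axis (each panel has its own range) for the 4 astrocyte markers, the tagged gene Rpl22 and the microglial gene Tmem119; each point is a library, and each line joins IP and input of a mouse. All 8 lines fall steeply for Slc1a2, Gja1, Aldh1l1, Kcnj10 and Rpl22, and all 8 rise for Tmem119.

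Most RNAs differed between IP and input by some amount, and a smaller set differed by more than 2-fold. In vehicle mice 12178 of 15490 genes tested (78.6%) passed an adjusted p of 0.05 in edgeR's quasi-likelihood test with the mouse as a block, and in wild-type mice 11341 of 15587 (72.8%). A gene is called enriched or depleted below when it passed that test with a fold above 2. Enriched genes numbered 1956 (12.6%) in vehicle and 1711 (11%) in wild-type mice, and depleted genes 2076 (13.4%) and 1916 (12.3%). Scaled by library size alone, the counts were 1513 enriched and 2722 depleted in vehicle mice and 1413 enriched and 2459 depleted in wild-type mice. That scaling moves the median log2 fold change of all genes by -0.22 in vehicle and -0.17 in wild-type mice, so enrichment is stated relative to the typical gene of each batch.

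Of 15314 genes tested in both batches, 1482 (9.68%) were enriched in both and 1514 (9.89%) were depleted in both. The shared enriched genes were 76.7% of the vehicle list and 87.6% of the wild-type list, and the shared depleted genes 76.7% and 85.6%. The ratio of IP to input had the same sign in all 8 mice for 1472 of the 1482 enriched and 1503 of the 1514 depleted genes. The range was lopsided. The highest log2 fold change was 3.36 in vehicle and 3.4 in wild-type mice, and the lowest was -7.67 and -5.67. Beyond 8-fold lay 8 and 11 enriched genes, against 424 and 331 depleted ones. Genes enriched in both batches took 20.1% to 21.9% of counted reads in vehicle IP, against 6.27% to 6.49% in vehicle input, and 17.8% to 21.5% in wild-type IP, against 6.53% to 7.06% in wild-type input.

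**Figure D2:**
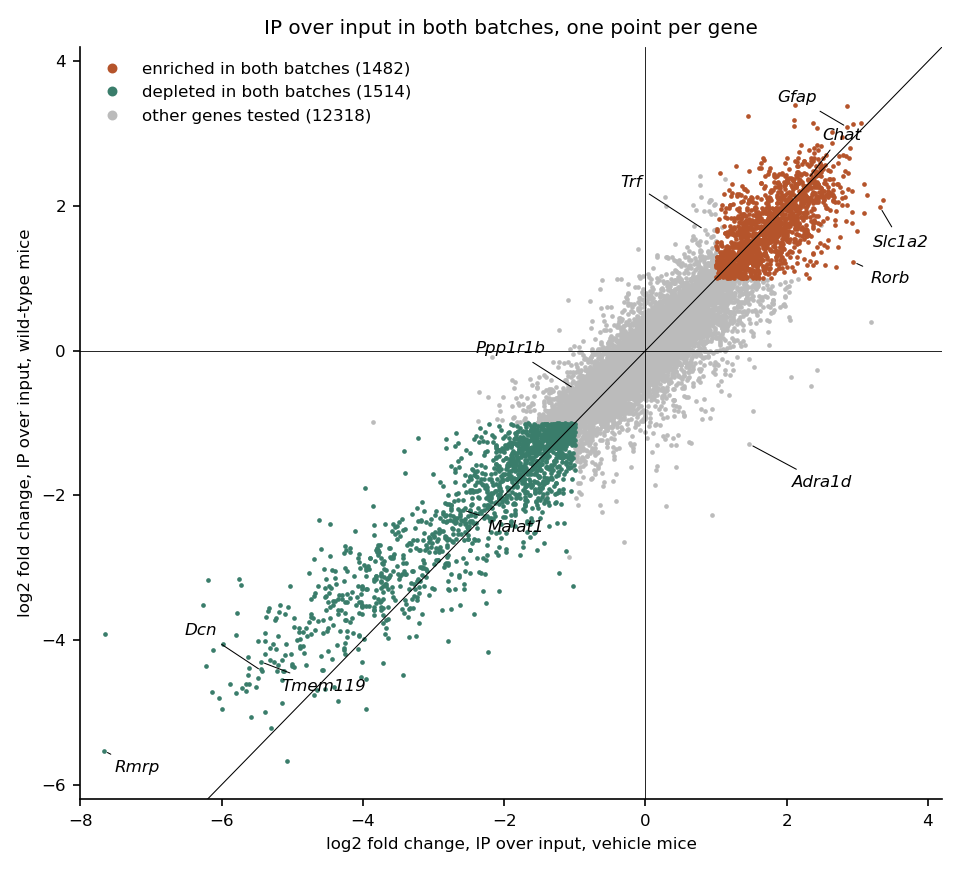
Log2 fold change of IP over input in vehicle mice (x axis) and wild-type mice (y axis), one point per gene tested in both batches, with the identity line. The 1482 genes enriched in both batches end near a log2 fold change of 3, whereas the 1514 depleted in both reach -7.67 in vehicle and -5.67 in wild-type mice.

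The most abundant messenger RNAs on astrocyte ribosomes were those of secreted and metabolic proteins. By FPKM, a level per transcript length, the lipid carrier gene Apoe led with a mean of 4747 FPKM over the 8 IP libraries, against 1115 FPKM in input. The protease inhibitor gene Cst3 (2719 against 1115 FPKM), the peptide-processing enzyme gene Cpe (2480 against 732), the synapse-inducing matrix gene Sparcl1 (1924 against 483), the chaperone gene Clu (1825 against 385), glutamine synthetase Glul (1688 against 512) and the glycolytic gene Aldoc (1687 against 379) followed. Each of these 7 was called enriched in both batches.

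Ranked by the smaller of the 2 batch values, the most enriched genes ranged from rare to abundant RNAs. The transglutaminase gene Tgm1 led, at 6.67, 13.3, 12.2 and 23 CPM in vehicle IP, against 0.774, 1.76, 1.85 and 2.75 CPM in vehicle input. In wild-type mice Tgm1 was at 25.7, 73.8, 19.8 and 31.4 CPM in IP, against 4.47, 7.99, 1.52 and 3.33 CPM in input. Its level thus spanned a wide range between mice in both fractions, while its log2 fold change was 2.94 ± 0.0991 in vehicle and 3.14 ± 0.151 in wild-type mice. The intermediate filament gene Gfap came next, with 1997 to 2601 CPM in vehicle IP, against 267 to 374 CPM in vehicle input, and 2395 to 4311 CPM in wild-type IP, against 230 to 459 CPM in wild-type input (log2 fold change 2.86 ± 0.047 and 3.09 ± 0.14).

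Other genes among the 20 most enriched were the urea transporter gene Slc14a1 (2.8 in vehicle and 2.71 in wild-type mice), the actin crosslinker gene Flnc (2.89 and 2.66), the protease inhibitor genes A2m (2.79 and 2.96) and Serpina3n (2.64 and 2.87), and the water channel gene Aqp4 (2.73 and 2.60), which sits in endfeet. The thyrotropin receptor gene Tshr (2.5 and 2.53), the adhesion gene Vcam1 (2.47 and 2.60), the carbonyl reductase gene Dcxr (2.48 and 2.83) and the death receptor genes Tnfrsf10b (2.84 and 2.69) and Eda2r (2.51 and 2.66) were also there. Tshr was a rare RNA, at 1.73 FPKM in IP and 0.346 FPKM in input.

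Genes for the transport of transmitters and ions lay at both ends. All 28 astrocyte markers tested were enriched in both batches, with medians of 2.40 in vehicle and 2.20 in wild-type mice, beside medians of -0.02 and -0.03 over all genes. In the glutamate-glutamine list, with medians of 0.15 and 0.20, 5 of 12 were enriched in both batches: Slc1a2, the second uptake gene Slc1a3 (2.62 and 2.37), Glul (2.05 and 1.76), the glutamine exporter gene Slc38a3 (2.44 and 2.30) and glutamate dehydrogenase Glud1 (1.69 and 1.52). The 2 depleted in both were the amino acid transporter gene Slc38a5 (-3.24 and -3.45) and Slc17a7 (-1.06 and -1.94), whose vehicle value fell within 2-fold without vehicle mouse 1 (-0.99) or 2 (-0.83).

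The GABA list had 5 of 10 genes enriched and 1 depleted in both batches, with medians of 1.14 and 0.99. The uptake gene Slc6a11 was enriched at 2.63 and 2.15 and monoamine oxidase Maob at 2.44 and 2.26, whereas Slc6a13, a transporter of meningeal and vascular cells, was depleted at -4.23 and -3.87. The GABA synthesis gene Gad1 was at 0.31 and 0.47, which passed the test but not the fold; under library size alone the vehicle value did not pass (0.09, edgeR adjusted p = 0.104). Of 16 potassium and water genes, 10 were enriched in both and none depleted, including the sodium pump subunit gene Atp1b2 (3.36 and 2.08) and the membrane protein gene Mlc1 (2.43 and 2.45).

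Among 12 connexins and pannexins, with medians of -0.08 and 0.29, the 3 enriched in both were Gja1, Gjb6 (2.20 and 2.06) and Gjb2 (1.75 and 1.97). The vascular connexin gene Gja4 was depleted in both batches (-1.68 and -1.15, and -1.0 without wild-type mouse 4), and the oligodendrocyte connexin gene Gjb1 was at -0.02 in vehicle mice, which did not pass but did at -0.19 without vehicle mouse 2, and at 0.64 in wild-type mice. In the endfoot dystroglycan list, 4 of 12 were enriched in both, among them dystroglycan Dag1 (1.2 and 1.07), the syntrophin gene Sntb1 (2.22 and 1.58) and the laminin chain gene Lama2 (1.90 and 1.34).

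Fuel and redox genes formed the second large group. Of 17 fatty acid oxidation genes, 15 were enriched in both batches, with medians of 1.85 and 1.74. Cpt1a, which controls the entry of fatty acids into mitochondria, was at 187, 160, 178 and 182 CPM in vehicle IP, against 33.6, 32.4, 30.1 and 32.4 CPM in vehicle input, and at 141, 156, 164 and 172 CPM in wild-type IP, against 37.5, 36.6, 34.7 and 35.3 CPM in wild-type input. Its libraries were tight within each fraction, and the log2 fold change was 2.46 ± 0.0509 and 2.13 ± 0.0734. The acyl-CoA synthetase gene Acsbg1 (2.62 and 2.49), the thioesterase gene Acot11 (2.65 and 2.22) and the nuclear receptor gene Ppara (2.33 and 1.85) were also enriched. Nuclear-encoded respiratory chain genes differed from this group: 0 of 22 were called in either direction, with medians of 0.39 and 0.53. In vehicle mice 15 passed the test as higher and 6 as lower, and in wild-type mice 16 and 1.

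Of 25 glycogen and glycolysis genes, 20 in each batch passed as higher and 5 as lower, and 9 were enriched in both, with medians of 0.87 and 0.74. The phosphorylase genes Pygb (2.30 and 2.03) and Pygm (2.53 and 2.12) and the glycogen-targeting subunit gene Ppp1r3c (1.90 and 1.92) were enriched, as was pyruvate dehydrogenase kinase Pdk4 (2.43 and 2.14). Aldoa was at 0.39 and 0.52 and Pkm at 0.43 and 0.56, while Aldoc reached 2.42 and 2.27. Hk2 was the one member of 25 depleted in both batches (-1.69 and -1.62). Of 13 serine and glycine genes, 8 were enriched in both, including Phgdh, the first enzyme of serine synthesis (1.85 and 1.87), and the glycine cleavage gene Gldc (2.57 and 2.17).

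Glutathione and antioxidant genes had 12 of 19 members enriched in both, with medians of 1.43 and 1.5. The peroxidase gene Prdx6 was at 2.19 and 2.36, the glutathione transferase gene Gstm1 at 2.38 and 2.34, the cystine importer gene Slc7a11 at 2.18 and 1.77 and the metallothionein genes Mt1, Mt2 and Mt3 between 1.54 and 2.07. Cholesterol synthesis genes had a smaller shift in the same direction. In vehicle mice 21 of 22 and in wild-type mice 22 of 22 passed as higher, 10 were enriched in both, and the medians were 1.12 and 0.91. Hmgcs1, an early enzyme of the pathway, was at 492 CPM or more in vehicle IP, against 211 CPM or less in vehicle input, and at 399 CPM or more in wild-type IP, against 277 CPM or less in wild-type input. The lipid exporter gene Abca1 was enriched at 2.20 and 1.69 and the lecithin-cholesterol acyltransferase gene Lcat at 2.22 and 2.15.

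Genes for proteins that astrocytes send to neurons were next. Of 21 secreted or surface proteins that promote or restrain synapses, 14 were enriched in both, among them the thrombospondin gene Thbs4 (2.87 and 2.46), the BMP antagonist gene Chrdl1 (2.92 and 2.21), Sparcl1 (2.39 and 1.96), its relative Sparc (1.59 and 1.88), the glypican gene Gpc5 (2.37 and 2.17) and the matrix genes Tnc (2.53 and 2.10) and Bcan (2.33 and 2.10). The neurotrophin gene Bdnf was at 0.30 in vehicle mice, which did not pass, and at -1.17 in wild-type mice. Bdnf was at 1.61, 7.15, 4.44 and 5.95 CPM in wild-type IP, against 2.2, 13.1, 12.7 and 17.3 CPM in wild-type input, so its input was high in the same 3 mice as Slc17a7, and the log2 ratio of wild-type mouse 1 was -0.44. Of 13 phagocytosis receptors and bridging proteins, 7 were enriched in both, including Megf10 (2.17 and 1.75), Axl (1.87 and 1.52) and the bridging protein genes Gas6 (1.42 and 1.39) and Mfge8 (1.78 and 1.62).

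Of 26 tested genes for receptors described in astrocytes, 6 were enriched in both and 2 depleted in both, with medians of 0.54 and 0.11. Over all genes tested in both batches, 9.68% were enriched and 9.89% depleted in both, so the depleted count was near that share. Endothelin receptor Ednrb (2.41 and 2.41), sphingosine receptor S1pr1 (2.37 and 2.18), neurotensin receptor Ntsr2 (2.08 and 2.03), Gpr37l1 (2.38 and 2.39) and adenosine receptor Adora2b (2.28 and 2.14) were enriched. The neuropeptide Y receptor gene Npy1r (-1.36 and -1.22) was depleted. In calcium store signalling, the IP3 receptor gene Itpr2 was enriched (1.95 and 1.42), Itpr1, abundant in neurons, was at -0.26 and -0.31, and Itpr3 was depleted (-2.03 and -2.09). Plcd4, a phospholipase C gene, was enriched at 2.42 and 2.48.

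Transcription factors and developmental pathways of the glial lineage were represented too. Of 27 transcription factors, 15 were enriched in both, with 26 and 25 higher and medians of 1.62 and 1.08. Sox9, which specifies glia, was at 3.14 and 2.16, Lhx2 at 2.10 and 1.55, Dbx2 at 2.17 and 2.13, Sox2 at 1.67 and 1.64 and the BMP target gene Id3 at 1.74 and 1.99. In the Notch, BMP, Shh and FGF list 11 of 22 were enriched in both, among them Notch1 (2.47 and 1.75), Fgfr3 (2.46 and 2.19), the BMP receptor gene Bmpr1b (2.26 and 1.88) and the hedgehog transducer gene Smo (1.79 and 1.73). Of 17 genes known to vary between astrocytes of different brain regions, 15 were enriched in both, including Crym, a thyroid hormone-binding protein of striatal astrocytes (1.52 and 1.87).

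**Figure D3:**
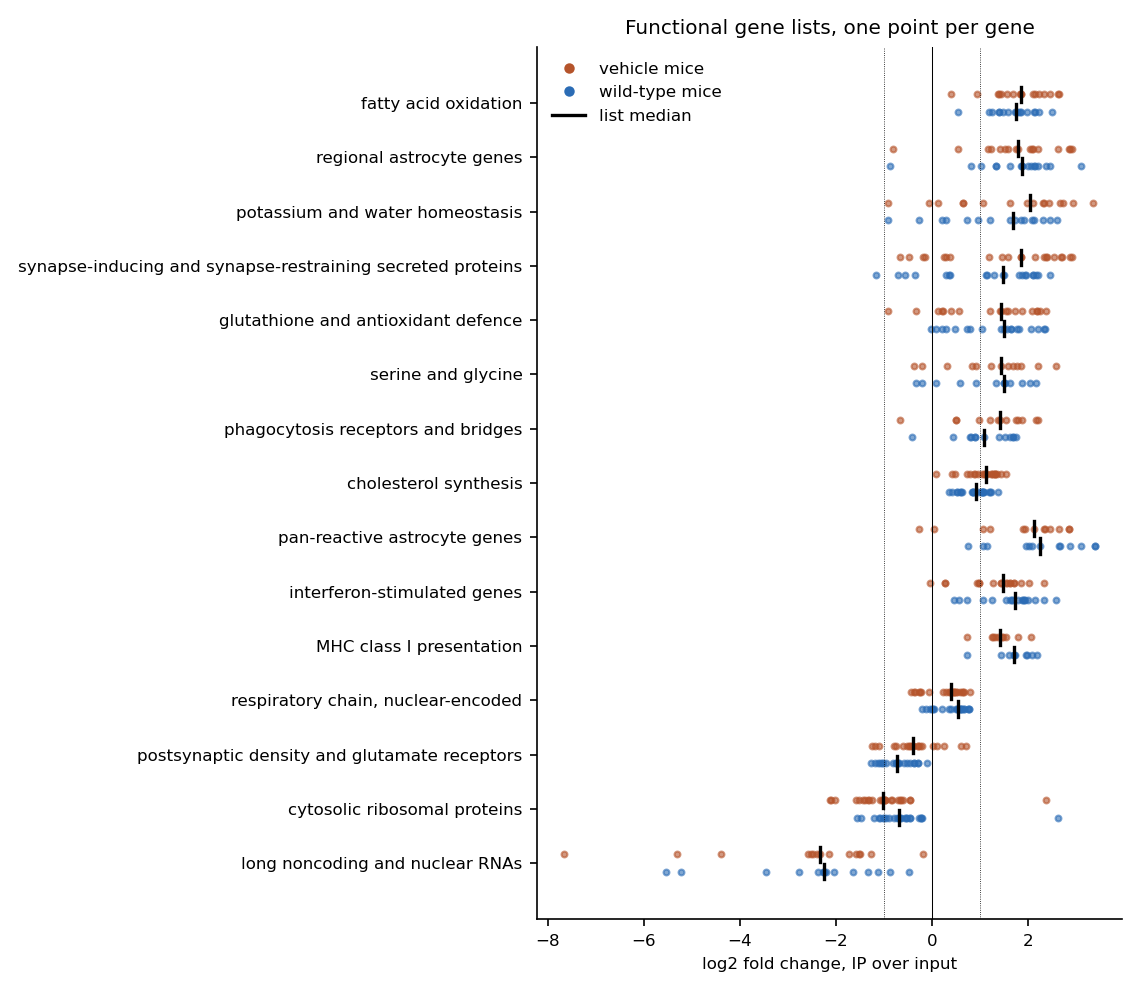
Log2 fold change of IP over input for the members of 15 functional gene lists, one point per gene and batch, with list medians as black bars and dotted lines at 2-fold. Fatty acid oxidation genes lie to the right of 0 in both batches, respiratory chain genes lie between the dotted lines, and noncoding RNAs lie to the left, down to -7.67 for Rmrp.

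Genes that astrocytes raise in injury and under interferon were enriched in these control animals, and their levels varied between mice. Of 13 genes raised in reactive astrocytes of several kinds, 11 were enriched in both batches, with medians of 2.12 and 2.25. The vimentin gene Vim was at 2.34 and 2.66, the oncostatin receptor gene Osmr at 2.36 and 2.64, the protease inhibitor gene Timp1 at 2.86 and 3.39 and the iron-binding lipocalin gene Lcn2 at 2.12 and 3.4. Of 13 genes listed as inflammatory or A1-type, 8 were enriched in both, and the proteoglycan gene Srgn was depleted (-3.64 and -3.29).

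Serpina3n was at 93.0, 158, 117 and 140 CPM in vehicle IP, against 15, 29.8, 17.9 and 19.8 CPM in vehicle input, and at 356, 528, 235 and 446 CPM in wild-type IP, against 68.2, 72.1, 25.7 and 53.5 CPM in wild-type input. Every wild-type IP library was above every vehicle IP library for this gene. Serpina3n belongs to a family of similar neighbouring genes that may share reads. All 8 animals had received the virus, and the part of the injection or of the batch in these levels was not tested.

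Interferon-stimulated genes and class I antigen presentation genes followed the same pattern. Of 18 interferon-stimulated genes, 12 were enriched in both (medians 1.48 and 1.73), and of 10 class I genes, 9 (medians 1.42 and 1.71). Ifit3, which restrains viral RNA translation, was at 273, 512, 494 and 544 CPM in vehicle IP, against 51.5, 127, 94.2 and 91.3 CPM in vehicle input, and at 669, 989, 421 and 703 CPM in wild-type IP, against 160, 160, 54.8 and 110 CPM in wild-type input. Vehicle mouse 1 and wild-type mouse 3 were lowest within their batch in IP, and the log2 fold change was 2.34 ± 0.0793 in vehicle and 2.58 ± 0.129 in wild-type mice. B2m, the light chain of class I molecules, was at 1151, 1840, 1306 and 1358 CPM in vehicle IP, against 433, 824, 594 and 560 CPM in vehicle input, and at 900 to 2117 CPM in wild-type IP, against 270 to 781 CPM in wild-type input. Bst2, which tethers budding virus, was at 1.70 and 2.15, and the guanylate-binding protein genes Gbp2 (2.39 and 2.74), Gbp5 (2.58 and 2.5), Gbp6 (2.51 and 2.51) and Gbp10 (2.56 and 2.71) were at or above 2.39 in both batches. Gbp6 and Gbp10 are near-identical members of one family, and their reads may be divided between copies.

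Promoters of 3 enriched members are shown because a known response element can be read in their sequence. RefSeq promoters (GRCm38.p6, 250 bases before to 50 bases after each start) matched 13 of the 18 interferon-stimulated genes. The 10-letter pattern of GAAA, any 2 bases and GAAA again, searched on both strands with overlaps allowed, is the core of the interferon-stimulated response element. It was present at a listed start of 9 of those 13 genes (69.2%), of 2 of 8 class I genes and of 423 of 11365 tested genes with a promoter (3.72%). Among genes enriched in both batches it was present in 73 of 1123 (6.5%), and among genes depleted in both in 56 of 1006 (5.57%). The interferon-stimulated list was chosen by known function, so its high share describes the choice of genes and is not a result of these data. A match describes the letters and is neither a bound site nor a cause. The 250 bases before the start of 3 of the genes follow, 5′ to 3′ on the gene's strand, with matches in capitals.
Ifit3, chr19:34583279-34583528, plus strand: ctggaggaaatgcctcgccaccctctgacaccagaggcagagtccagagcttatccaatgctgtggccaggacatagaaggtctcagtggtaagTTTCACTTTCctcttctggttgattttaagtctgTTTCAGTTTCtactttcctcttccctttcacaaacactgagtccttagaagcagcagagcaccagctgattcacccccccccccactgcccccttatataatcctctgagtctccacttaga
Bst2, chr8:71537473-71537722, minus strand: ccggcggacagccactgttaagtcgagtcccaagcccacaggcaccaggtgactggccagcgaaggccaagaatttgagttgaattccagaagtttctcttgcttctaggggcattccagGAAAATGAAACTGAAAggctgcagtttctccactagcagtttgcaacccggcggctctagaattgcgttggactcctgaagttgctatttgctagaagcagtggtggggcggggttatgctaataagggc
B2m, chr2:122147437-122147686, plus strand: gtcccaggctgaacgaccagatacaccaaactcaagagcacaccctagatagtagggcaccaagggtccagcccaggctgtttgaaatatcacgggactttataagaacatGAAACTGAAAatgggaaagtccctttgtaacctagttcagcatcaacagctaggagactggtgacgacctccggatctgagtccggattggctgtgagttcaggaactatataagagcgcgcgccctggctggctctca
Ifit3 carries 2 matches, at -156 to -147 and -122 to -113 from its start, both read on the opposite strand. Bst2 carries 2 overlapping matches between -130 and -115, and B2m carries 1 at -139 to -130.

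Complement genes were found at both ends. The 3 chains of C1q, made in the brain mainly by microglia, were depleted, with C1qa at -5.61 and -4.61, C1qb at -6.14 and -4.72 and C1qc at -6.04 and -4.80. The classical pathway components C4b (2.44 and 2.30, a gene with a close copy that may share its reads), C1ra (2.16 and 2.47), C1s1 (1.82 and 2.41) and C2 (1.23 and 1.61) and the inhibitor gene Serping1 (2.39 and 2.8) were enriched. The anaphylatoxin receptor gene C3ar1 (-4.80 and -3.84) was depleted. In all, 5 of 15 complement genes were enriched and 7 depleted in both batches.

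By list median, microglial markers were the most depleted of the 13 cell type lists plotted. Of 17 microglia markers, 16 were depleted in both batches, with medians of -5.22 and -4.30. Tmem119, a microglial surface protein, was at 1.09, 1.07, 1.04 and 0.998 CPM in vehicle IP, against 42.1, 54.8, 42.9 and 44.2 CPM in vehicle input, and at 2.57, 2.41, 1.2 and 2.30 CPM in wild-type IP, against 56.2, 41.6, 25.5 and 43.9 CPM in wild-type input. The fractalkine receptor gene Cx3cr1 was at 2.97 to 3.84 CPM in vehicle IP, against 113 to 137 CPM in vehicle input, and at 3.51 to 5.42 CPM in wild-type IP, against 79.0 to 131 CPM in wild-type input. Summed over the 17 markers, IP held 5.29% to 6.95% of the input CPM of the same vehicle mouse and 7.55% to 11.3% of that of the same wild-type mouse. Sall1, a transcription factor gene of microglia, was the exception at 0.63 and, without passing, 0.01.

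Many markers of vascular cells were depleted as well, but not the summed RNA of every list. Of 14 endothelial markers, 11 were depleted in both batches, including Cldn5, of tight junctions (-3.72 and -3.56), and the adhesion gene Pecam1 (-3.79 and -3.44), with list medians of -3.24 and -3.28. Cldn5 was at 1.16 to 2.08 CPM in vehicle IP, against 17.7 to 23.3 CPM in vehicle input, and at 0.639 to 2.10 CPM in wild-type IP, against 11.5 to 18.6 CPM in wild-type input. The glucose transporter gene Slc2a1, present in both vessels and astrocytes, was at 0.31 and 0.51; the vehicle value passed, but not under library size alone (0.09, edgeR adjusted p = 0.115). Of 8 fibroblast markers 6 were depleted in both, with Dcn at -5.43 and -4.43, while Pdgfra, also a gene of oligodendrocyte precursors, was at 0.42 and 0.86. Summed CPM in IP was 33.1% to 37.6% of that in input of the same vehicle mouse and 38.3% to 51% in wild-type mice for endothelial markers, but 94.8% to 111% and 88.6% to 155% for fibroblast markers and 94.9% to 111% and 99.1% to 131% for mural markers. The endothelial list holds Slc2a1, and the fibroblast and mural lists each share a gene with oligodendrocyte precursors (Pdgfra and Cspg4). The sums of these lists are therefore not of vascular RNA alone. In vehicle IP the fibroblast sum had a mean of 116 CPM, of which Dcn held 0.215 CPM and Col1a2 10.7 CPM. Mural cell markers were mixed: Kcnj8 (-2.46 and -2.12), Vtn (-1.98 and -1.99) and Rgs5 (-1.84 and -1.63) were depleted, whereas the receptor gene Notch3 was enriched (2.32 and 1.6).

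RNAs that are not translated were the other depleted class. Of 472 long noncoding RNAs tested in both batches, 158 (33.5%) were depleted in both and 19 (4.03%) enriched, and of 73 small RNAs, 56 (76.7%) were depleted in both. Protein-coding genes had 1167 of 13920 (8.38%) depleted and 1390 (9.99%) enriched. Rmrp, the RNA of ribonuclease MRP, was at 5.14, 4.56, 4.48 and 5.46 CPM in vehicle IP, against 1125, 869, 998 and 1031 CPM in vehicle input, and at 29.2, 34.0, 19.9 and 6.15 CPM in wild-type IP, against 1339, 1134, 650 and 646 CPM in wild-type input. Its log2 fold change was -7.67 ± 0.0643 and -5.53 ± 0.271. The nuclear RNA Malat1 was at -2.59 and -2.20, the imprinted Meg3 at -2.48 and -2.76 and Rian at -2.51 and -2.28, the RNase P RNA Rpph1 at -4.39 and -3.46 and the telomerase RNA Terc at -5.30 and -5.22. In 15 tested members of the noncoding list, 13 were depleted in both batches and all 15 were lower in each.

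Ribosomal protein messenger RNAs were lower in the precipitate with Rpl22 as the exception. Of 25 genes, 24 in vehicle and 22 in wild-type mice passed as lower, with list medians of -1.03 and -0.69, and 6 were depleted in both batches. Rplp1 was at -2.11 and -1.56, Rps19 at -1.43 and -1.1 (-0.99 without wild-type mouse 1) and the Rpl22 paralog Rpl22l1 at -2.01 and -1.2. Many ribosomal protein genes have processed copies elsewhere in the genome, and reads that fit several copies may be missing from these counts.

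**Figure D4:**
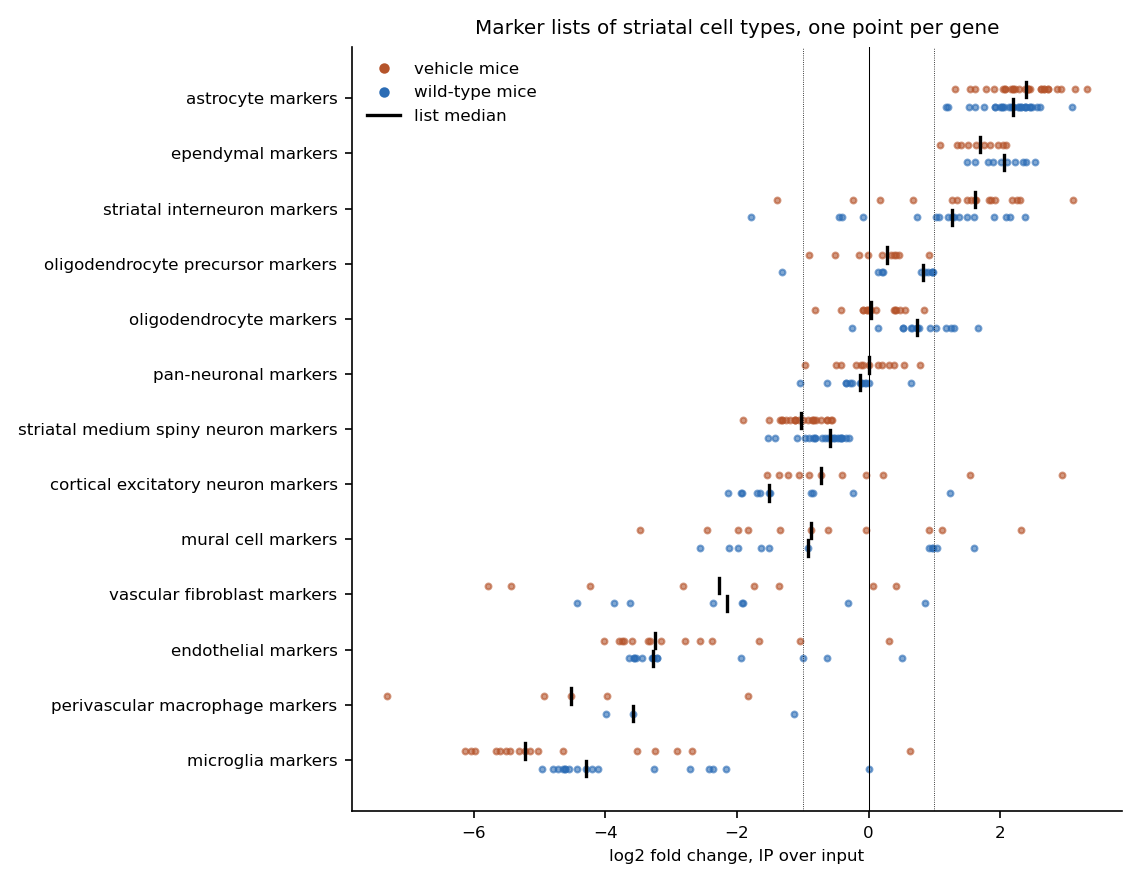
Log2 fold change of IP over input for marker genes of 13 cell types, one point per gene and batch, with list medians as black bars and dotted lines at 2-fold. Astrocyte, ependymal and interneuron lists have medians above 1 in both batches, the oligodendrocyte list lies at 0.03 and 0.73, the pan-neuronal list at 0.00 and -0.13, and microglia lie at -5.22 in vehicle and -4.30 in wild-type mice.

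Not all RNA of other cells was depleted. All 10 ependymal and motile cilia markers tested were enriched in both batches, with medians of 1.70 and 2.06. By mouse the list median was 2.55 in vehicle mouse 1 and 1.35, 1.63 and 1.09 in vehicle mice 2 to 4, and 1.49, 2.06, 2.51 and 2.11 in wild-type mice. The cilia master regulator gene Foxj1 was at 93.5, 70.1, 59.1 and 56.0 CPM in vehicle IP, against 16.1, 14.3, 15.8 and 18.3 CPM in vehicle input, and at 74.7, 76.3, 76.9 and 105 CPM in wild-type IP, against 20.5, 15.6, 13.4 and 16.1 CPM in wild-type input. No IP library overlapped an input library (log2 fold change 2.09 ± 0.125 and 2.35 ± 0.124). Summed CPM of the list in IP was 234% to 606% of that in input of the same vehicle mouse and 327% to 567% in wild-type mice.

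Striatal interneuron markers, which belong to neurons rather than to the targeted cell type, were enriched too. Of 17 markers 12 were enriched in both batches, with medians of 1.61 and 1.27. The cholinergic genes Chat, for acetylcholine synthesis, Slc5a7, for choline uptake, and Slc18a3, for vesicle loading, were at 2.30 and 2.37, 2.25 and 2.09, and 2.18 and 2.15. Chat was at 149, 135, 143 and 142 CPM in vehicle IP, against 31.1, 27.8, 28.8 and 27.9 CPM in vehicle input, and at 117, 85.5, 101 and 102 CPM in wild-type IP, against 28.2, 15.3, 17.7 and 18.7 CPM in wild-type input. Nitric oxide synthase Nos1 was at 3.10 and 1.90, somatostatin Sst at 1.92 and 1.30 and neuropeptide Y, Npy, at 1.86 and 1.2, which places Nos1 among the most enriched RNAs of the vehicle batch. Cck, also a gene of cortical neurons, was depleted (-1.39 and -1.79). Summed CPM of the 17 markers was 1309 to 1642 in vehicle IP, against 362 to 391 in vehicle input, and 910 to 1074 in wild-type IP, against 371 to 499 in wild-type input. The source of this RNA was not tested.

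Medium spiny neurons, the main neurons of the striatum, were under-represented without being absent. All 22 markers passed as lower in both batches, with medians of -1.03 and -0.59, but 11 in vehicle mice and 3 in wild-type mice were depleted beyond 2-fold. Ppp1r1b, which encodes the phosphatase inhibitor DARPP-32, was at 682 CPM or less in vehicle IP, against 1224 CPM or more in vehicle input, and at 737, 459, 587 and 489 CPM in wild-type IP, against 1236, 658, 736 and 697 CPM in wild-type input. The opioid precursor gene Penk of the indirect pathway was at -0.92 and -0.45, and the tachykinin gene Tac1 of the direct pathway at -1.32 and -0.91. Arpp21 (-1.91 and -1.53), Gng7 (-1.52 and -1.42) and the scaffold gene Dlgap3 (-1.19 and -1.09) were the 3 depleted in both. For comparison, 13.4% of all genes tested were depleted in vehicle mice, 12.3% in wild-type mice and 9.89% in both. The counts of 3 in wild-type mice and 3 in both were thus near the share over all genes. In IP the summed CPM of the list was 48.4% to 54.3% of input in vehicle mice and 59.1% to 72.1% in wild-type mice.

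Genes shared by many neurons lay closer to the tissue level. Pan-neuronal markers had medians of 0.00 and -0.13, with the axonal gene Snap25 at -0.42 and -0.63 and the tubulin gene Tubb3 at 0.38 and 0.64. By mouse, the list median was 0.18 in wild-type mouse 1, where Snap25 was at 0.03, and -0.38, -0.36 and -0.33 in wild-type mice 2 to 4. Summed CPM of the list in input was 5874 in wild-type mouse 1, against 7716 to 7997 in wild-type mice 2 to 4. In the postsynaptic list 16 of 21 in vehicle and 20 of 21 in wild-type mice passed as lower, and the scaffold genes Dlg4 (-1.24 and -1.28), Homer1 (-1.11 and -1.13) and Dlgap3 were depleted in both. These 3 of 21 were near the 9.89% of all genes tested in both batches that were depleted in both. Of 12 RNAs known to travel into axons, dendrites and other processes, 3 were depleted in both: Dlg4, Ddn (-1.89 and -1.53) and Nrgn (-1.54 and -1.52). Cortical excitatory neuron markers had medians of -0.73 in vehicle and -1.52 in wild-type mice, with -1.04, -1.56, -0.76 and -0.08 in the 4 vehicle mice. The list median in wild-type mouse 1, whose input lacked the raised cortical level, was -1.33, against -1.37 to -1.61 in wild-type mice 2 to 4. The summed CPM of the list differed more between these mice. In IP it was 76.7% of input in wild-type mouse 1, against 48.5% to 51.7% in wild-type mice 2 to 4 and 86.9% to 109% in vehicle mice. Rorb, which astrocytes also express, was enriched within that list (2.94 and 1.23).

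Oligodendrocyte RNA was near the tissue level in vehicle mice and above it in wild-type mice. The list medians were 0.03 and 0.73, with 0 of 15 genes called in vehicle mice and 5 enriched in wild-type mice. The iron carrier gene Trf was at 0.84 ± 0.0646 and 1.67 ± 0.125 and the myelin enzyme gene Cnp at 0.56 and 1.18. Mbp, whose messenger RNA moves into myelin processes, was at -0.42 and 0.14, the second without passing.

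The size of the IP to input difference itself was compared between batches. It differed for 2954 of 16042 genes (18.4%), with 1741 (10.9%) higher in vehicle and 1213 (7.56%) higher in wild-type mice (edgeR quasi-likelihood test of the interaction, vehicle minus wild type). The count was 1513 without vehicle mouse 3, 1471 without vehicle mouse 4 and 1494 without wild-type mouse 2. It rose to 4190 without wild-type mouse 1, the wild-type mouse whose input lacked the raised cortical level. The count thus moved in both directions with single animals, and leaving out a mouse also lowers the power of the test. Among astrocyte markers 7 were higher in vehicle mice and 1 in wild-type mice, with the largest differences at Slc1a2 (1.33 ± 0.103), Kcnj10 (1.00) and Sox9 (0.98), while Apoe (0.00) and Aldh1l1 (0.10) did not pass.

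Genes with small interaction p-values lay in several cell types. Rorb differed by 1.71 (per-mouse log2 ratios of 2.72 to 3.07 in vehicle mice, against 1.70 in wild-type mouse 1 and 0.82 to 1.24 in wild-type mice 2 to 4), Nfia, whose wild-type value of 1.01 was 0.98 without wild-type mouse 3, by 1.30, Atp1b2 by 1.28, the kinase gene Hipk2 by 1.23 and Nos1 by 1.19. Without the mouse block C1qb (-1.44, edgeR adjusted p = 0.0518), C1qa (-1.01, 0.134) and Trf (-0.85, 0.0581) no longer passed. With it, C1qb differed by -1.43, Tmem119 by -1.15, C1qa by -1.0, the smooth muscle gene Tagln by -1.59, and Trf by -0.83, and 14 of 15 oligodendrocyte markers and 14 of 17 microglia markers had a higher ratio in wild-type mice, which for microglia means a shallower depletion. Transcript length moved with this difference. Genes that were higher in vehicle mice had a median length of 5257 bases and those higher in wild-type mice 1918 bases, with 2864 bases over all genes tested. In the longest of 4 equal bins of genes by length 29% were higher in vehicle and 2.35% in wild-type mice, and in the shortest 1.83% and 14.6%. The part of length, RNA quality or batch in any single gene's difference was not tested.

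**Figure D5:**
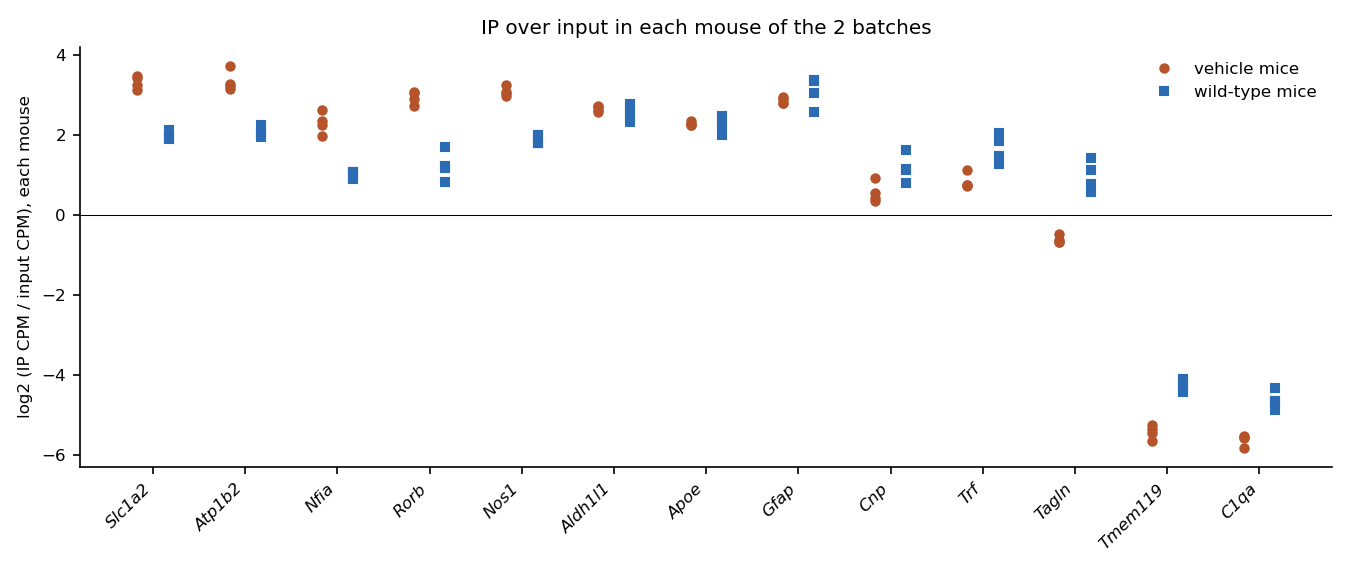
Log2 ratio of IP CPM to input CPM in each mouse, vehicle mice as circles and wild-type mice as squares, for 13 genes. The batches do not overlap for Slc1a2, Atp1b2, Nfia, Rorb, Nos1, Trf, Tagln, Tmem119 and C1qa, and they overlap for Aldh1l1, Apoe, Gfap and Cnp.

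A single gene among the 15314 was called in opposite directions. The alpha-1D adrenergic receptor gene Adra1d, singled out with its values known, was enriched in vehicle mice (1.47) and depleted in wild-type mice (-1.29, and -0.94 with an adjusted p of 0.0629 without wild-type mouse 2). It was at 1.67, 1.81, 1.84 and 2.00 CPM in vehicle IP, against 0.747, 0.815, 0.496 and 0.588 CPM in vehicle input. In wild-type mice Adra1d was at 1.5, 2.70, 3.57 and 3.65 CPM in IP, against 0.758, 11.9, 10.3 and 8.82 CPM in input. Wild-type mouse 1 had a log2 ratio of 0.97, outside the range of wild-type mice 2 to 4 (-2.14 to -1.27), whose input libraries also held the raised Slc17a7.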

How the data were processed

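Reads were aligned with STAR and counted per gene with HTSeq on mm10, per the submitters' processing notes, which give no versions; whether strand was used in counting is not given in the sources used here, so overlapping antisense genes cannot be told apart. The authors deposited raw counts per gene and FPKM values; FPKM was used to compare levels between genes and in alternatives. Counts were fitted per batch in R 4.3.3 with edgeR 4.0.16 (filterByExpr by fraction with a minimum count of 10, TMM, quasi-likelihood F test, mouse as a block, Benjamini-Hochberg adjustment over all genes tested). Standard errors are those implied by the F statistic. Pairing came from the titles, and residuals of IP and input from the same mouse correlated at 0.0946 to 0.524, with each library matching its own mouse best in 8 of 8 mice. Replicates of a group differed by more than sampling noise in every pair (chi-square per degree of freedom 3.99 to 64.9). On simulated counts with log2 changes of 1.5 and 3, both batch fits (15380 genes in vehicle and 15501 in wild-type mice) recovered 100% of changed genes, and the fit of the difference (15852 genes) recovered 96% at 1.5 and 100% at 3. The simulation changed 97 vehicle genes by 1.5 and 99 by 3, at a single fixed dispersion for all genes. Its mouse effects were shared by IP and input, and the block removes such effects. In the data 78.6% of vehicle genes passed, and recovery under change that broad was not tested. The titles name each mouse; of 24060 gene rows, the 4 with a repeated symbol were kept apart and are not named.

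Gene lists, members and named-gene rules were chosen with earlier results of these data known. Named were the 4 markers and Rpl22, the 20 most enriched, 20 most depleted and 20 most abundant genes, and per list up to 6 called in both batches, up to 3 by abundance and those against the majority, the 10 genes per direction with the smallest p of the difference between batches, and, outside the rule, Adra1d for its opposite calls; the report uses a part of them. Alternatives were other scalings, DESeq2 1.42.0, limma 3.58.1 (voom, and trend on log2 FPKM with pseudocounts of 1 and 0.1), other filters and thresholds, no block, and each replicate left out. Some list members are not reported here.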

Additional observations from a re-analysis of the deposited data

Results flagged for a closer look

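A mouse stood far from the other 3 of its batch in 25 of 384 sets of 4 log2 ratios of IP to input, by Dixon's test on each set, and chance gives about 1 in 20. In vehicle mouse 1 the values were -5.82 for C1qa, 2.71 for C1s1, 1.65 for Cst3, 1.85 for Mt1, 2.46 for Notch3 and 2.02 for Phgdh. Vehicle mouse 2 stood apart with 2.52 for Acot11, 1.54 for Axl, 1.89 for Cpe and 1.12 for Trf, and vehicle mouse 4 with -1.02 for Cck. Wild-type mouse 1 had 2.31 for Aqp4, 1.6 for C1s1, 2.05 for Chat, 2.22 for Osmr, 0.28 for the oligodendrocyte precursor gene Pdgfra, 1.69 for Ppp1r3c, 2.11 for Serping1 and 0.03 for Snap25, and its list medians were 0.18 for pan-neuronal markers and 1.24 for glutathione and antioxidant genes. Wild-type mouse 2 had -2.55 for Pecam1 and list medians of -4.10 for microglia and -2.67 for endothelial markers, and wild-type mouse 4 had -1.28 for Homer1.

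The log2 fold change differed between batches for 2954 genes in all and for 60 of 170 named genes, with 37 higher in vehicle and 23 higher in wild-type mice (edgeR interaction test). Some genes were named for this difference, so the share of named genes describes the choice; over all genes it was 18.4%. Vehicle minus wild type, the difference was 1.33 for Slc1a2, 1.00 for Kcnj10, 0.42 for Gja1, 0.98 for Sox9, 1.30 for Nfia, 0.55 for Lhx2, 0.73 for Notch1, 0.38 for Bmpr1b, 1.23 for Hipk2, 0.48 for Ppara and 0.58 for the growth factor receptor gene Egfr. Among transport and signalling genes it was 1.28 for Atp1b2, 0.49 for Slc6a11, 0.41 for Slc7a11, 0.53 for Itpr2, 2.75 for Adra1d, 0.64 for Sntb1 and 0.56 for Lama2. Metabolic genes had 0.51 for Abca1, 0.43 for Acot11, 0.33 for Cpt1a, 0.40 for Gldc, 0.29 for Glul, 0.33 for Hmgcs1, 0.27 for Pygb and 0.41 for Pygm. Genes of secreted proteins and phagocytosis had 0.71 for Chrdl1, 0.43 for Sparcl1, 0.43 for Megf10 and 1.47 for Bdnf. Genes listed with neurons, vessels or microglia had 1.71 for Rorb, 1.19 for Nos1, 0.66 for Npy, 0.62 for Sst, 0.87 for Slc17a7, 0.73 for Notch3 and 0.62 for Sall1.

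Differences below 0 were found for microglial and macrophage genes, with -1.0 for C1qa, -1.43 for C1qb, -1.26 for C1qc, -0.79 for Cx3cr1, -1.15 for Tmem119 and -0.94 for Mrc1. Oligodendrocyte genes had -0.61 for Cnp, -0.67 for Gjb1, -0.57 for Mbp and -0.83 for Trf. Medium spiny neuron and dendritic genes had -0.39 for Arpp21, -0.48 for Penk, -0.47 for Ppp1r1b, -0.42 for Tac1 and -0.36 for Ddn. Noncoding and ribosomal protein genes had -2.15 for Rmrp, -0.92 for Rpph1, -0.80 for Rpl22l1, -0.54 for Rplp1 and -0.33 for Rps19. The others were -1.0 for Dcn, -1.29 for Lcn2 and -1.59 for Tagln.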

How the results depend on the processing

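Of 129 recomputed counts of calls, 112 stayed within 1.5 times the reported count. On log2(FPKM + 1) with limma-trend, enriched and depleted genes numbered 909 and 1209 in vehicle mice, 869 and 981 in wild-type mice, and 717 and 773 in both batches, and the pseudocount shrinks low genes. Past 4-fold they numbered 458 and 781, 386 and 737, and 261 and 579. Leaving out each mouse in turn gave 1908 to 2017 enriched and 2082 to 2116 depleted genes in vehicle mice, 1659 to 1865 and 1893 to 2079 in wild-type mice, and 1409 to 1519 and 1431 to 1575 in both batches. The genes that differed between batches numbered 1471 to 4190 with a mouse left out and 1011 at an adjusted p below 0.01.

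Without the replicate block (the pairing of IP and input by mouse), 1429 genes differed between batches, and the cause was not tested, while 1962 were enriched and 2070 depleted in vehicle mice, 1703 and 1887 in wild-type mice, and 1473 and 1494 in both. Adra1d (-1.49, adjusted p = 0.0501), Bdnf (-1.25, 0.0737), Penk (-0.45, 0.155) and Slc17a7 (-1.83, 0.0599) then no longer passed in wild-type mice by edgeR, nor did the batch differences of C1qb (-1.44, 0.0518), C1qa (-1.01, 0.134) and Trf (-0.85, 0.0581). Under library size alone and both FPKM fits Slc2a1 and Gad1 in vehicle mice (each 0.09), and under the same settings Tubb3 (0.16), did not pass.

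Of 5776 recomputed log2 fold changes of named genes, 15 changed sign, with neither value past the test, as did 10 of 285 batch differences. Gjb1 in vehicle mice was at 0.00 with no filter, 0.01 without the block and -0.19 to 0.05 with a mouse left out. Mbp in wild-type mice was at -0.03 under library size alone and both FPKM fits and -0.01 to 0.27 with a mouse left out. Sall1 in wild-type mice was at -0.09 under upper quartile scaling, -0.16 under library size alone, -0.14 and -0.16 in the FPKM fits, -0.01 with a mean CPM of at least 1, and -0.10 to 0.12 with a mouse left out. The Apoe difference was -0.03 under upper quartile scaling, -0.04 under library size alone and both FPKM fits, and -0.11 to 0.07 with a mouse left out, and that of Aldh1l1 was -0.01 to 0.16 with a mouse left out. With 4 mice a batch, small differences of rare RNAs were not resolved.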

Other observations

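Some cell types and gene groups lay outside the comparisons above. All 10 oligodendrocyte precursor markers stayed within the 2-fold limit in vehicle mice (median 0.27), while the wild-type median was 0.83 with 1 marker depleted, and the growth factor receptor gene Pdgfra was at 0.42 and 0.86. Perivascular macrophage markers were depleted in all 5 members tested in vehicle mice and all 3 tested in wild-type mice, and the mannose receptor gene Mrc1 was at -4.52 and -3.58. Of 18 immediate early genes, 1 was enriched and 1 depleted in both batches (medians -0.49 and -0.43), and the enriched one was Jun (1.17 and 1.25). Of 10 A2-type reactive genes tested in both batches, 4 were enriched in both, among them Emp1 (2.00 and 2.36) and the pentraxin gene Ptx3 (2.38 and 3.15). The 1 member depleted in both was Cd14 (-4.46 and -2.39). Over all genes tested in both batches, 9.68% were enriched and 9.89% depleted in both. The growth factor receptor gene Egfr was enriched at 2.65 and 2.08.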
